A study of Bos taurus with 15 samples.

Results

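Expression of 6 genes of tendon and wound-type matrix was followed across engineered bovine meniscal tissue: the tendon transcription factors SCX (scleraxis) and MKX (mohawk), the matricellular glycoproteins TNC (tenascin C) and POSTN (periostin), and the thrombospondins THBS1 and THBS2. They were taken by symbol from the deposited expression table, in which each symbol stands on 1 row, so that 6 of 38001 genes are described. All 15 libraries came from meniscal fibrochondrocytes, the matrix-making cells of the knee meniscus, grown in collagen and sampled at day 28, after 3 days of growth in medium containing 10% fetal bovine serum, then 25 days in a chondrogenic medium with ascorbic acid (50 µg/ml), dexamethasone, TGF-β3 (10 ng/ml), an insulin, transferrin and selenium supplement and nonessential amino acids. Every group received the same media, so no group lacks TGF-β3. The 5 groups of 3 libraries were cells in collagen without a mold, and the middle and post regions of molded tissues either without post anchors (unanchored middle, unanchored post) or with them (anchored middle, anchored post). Regions were cut into smaller pieces before RNA was taken, and in bulk RNA fewer cells of a type and less RNA per cell cannot be told apart.

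SCX is a basic helix-loop-helix factor that marks tendon and ligament progenitors, and MKX is a homeodomain factor that maintains tendon collagen expression. TNC, POSTN, THBS1 and THBS2 are matricellular proteins: they are secreted into the matrix, where they tune adhesion and growth factor activity more than they bear load, and they are characteristic of loaded, developing or healing connective tissue. THBS1 can release TGF-β from its latent complex, THBS2 limits vessel growth and shapes collagen fibrils, and POSTN binds collagen and TNC. In the meniscus, an organ between tendon and cartilage, such genes belong to the fibrous side of the tissue.

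Library totals ran from 2060781 to 7415701 counts, and 3 libraries were shallow: no-mold libraries 1 and 3 and anchored middle library 2. The no-mold group also had the lowest mean share of mitochondrial messenger RNA (1.52% ± 0.186 of counts, against group means of 1.76% to 2.21% in molded tissue, n = 3 each) and the highest mean of AFP, a fetal liver transcript (91.3 ± 42.4 CPM against 32.8 to 61.8). The part of depth and of these measures in the differences from no mold was not tested. Markers of the labelled cell type were present: all 15 listed fibrochondrocyte genes were detected in every library, with at least 9.46 CPM of CILP, the lowest of them, and 1440 CPM of the proteoglycan DCN. Among other cell types, MYOD1, MYOG and ALAS2 were at 0 in all libraries, the summed level of 7 leukocyte markers was 4.70 to 8.73 CPM without a mold and 4.87 to 8.83 CPM in molded libraries, and that of 8 endothelial markers was 70.0 to 78.6 CPM without a mold and 53.9 to 88.7 CPM in molded libraries. Nearly all of the endothelial sum was ERG (51.9 to 87.8 CPM), and 5 of the 8, PECAM1 and CDH5 among them, were under 1 CPM in every library. Of 6 tenocyte markers, SCX and MKX among them, 1 was under 1 CPM in every library. It was TNMD, a defining gene of mature tendon cells, with 2 counts in all. The summed level of the 6 was 216 to 273 CPM without a mold and 251 to 517 CPM in molded libraries, with THBS4 at 148 to 426 CPM. Whether the 3 libraries of a group stem from separate tissues is not in the labels; p-values therefore measure only how these libraries spread, and that spread may be technical.

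All 6 genes had enough counts to be tested. Levels are given as CPM, each library's counts scaled to a common total with edgeR's TMM factors. The libraries are of 3' end type, and CPM are not divided by length, so levels are compared between samples and not between genes. SCX (ENSBTAG00000009816) rested on the fewest counts, from 36 (95% exact Poisson interval 25.2 to 49.8, counting error only) to 237 a library. MKX (ENSBTAG00000007678) had 67 to 380, THBS2 (ENSBTAG00000018810) 99 to 675, TNC (ENSBTAG00000000575) 247 to 2854.5, POSTN (ENSBTAG00000012409) 329 to 2787 and THBS1 (ENSBTAG00000002006) 7773.5 to 48136.5. The deposited THBS1 value was not a whole number in 12 of 15 libraries, nor was that of TNC in 3 and of MKX and POSTN in 1 each; the reason was not tested. In RefSeq's annotation of ARS-UCD2.0 the end of THBS1 overlaps FSIP1, which had 11 counts in all libraries together. SCX lies inside BOP1 there, 2 noncoding genes overlap TNC, and MKX, THBS2 and POSTN overlap no other gene. No row of the deposited table bears the symbol of BOP1 or of these noncoding genes, and 17715 of the 38001 genes have no symbol. The strand setting of the counting is not given in the sources used here. Reads of SCX and BOP1, and of TNC and its noncoding neighbours, therefore cannot be told apart here.

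The comparison of molded with unmolded tissue asks how expression differed between molded tissue and cells in collagen with no mold. TNC, POSTN and THBS2 were higher in molded tissue: TNC 2.00-fold, POSTN 1.76-fold and THBS2 1.53-fold in the mean of the 4 molded groups. THBS1 passed the test in 1 of the molded groups, anchored middle, and neither tendon transcription factor passed in any. With no filter on low counts SCX passed in anchored middle (edgeR adjusted p = 0.0147), and THBS1 also in unanchored middle (0.00546), anchored post (0.0369) and the molded mean (0.00049). So 3 of 6 members rose and 0 fell, where 8.04% of the 11834 genes tested rose and 7.91% fell (16% either way). That background changed with the no-mold libraries used: its 1888 genes became 856 without no-mold library 3, 1127 without library 1 and 1515 without library 2. A fit with fewer libraries can also call fewer genes for that reason alone. Of the middle groups, unanchored tissue had 3 members that rose (7.56% of all genes did) and anchored tissue 4 (7.11%), and of the post groups 2 rose in each (4.93% of all genes unanchored and 2.92% anchored). The members' median log2 fold change was 0.48, beside a median of 0.00 over all genes tested. Scaling by library totals alone moved the split over all genes from 952 higher and 936 lower to 1329 and 677, and THBS1 then passed as well (edgeR adjusted p = 0.0417). All comparisons with no mold share the same 3 no-mold libraries.

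**Figure D1:**
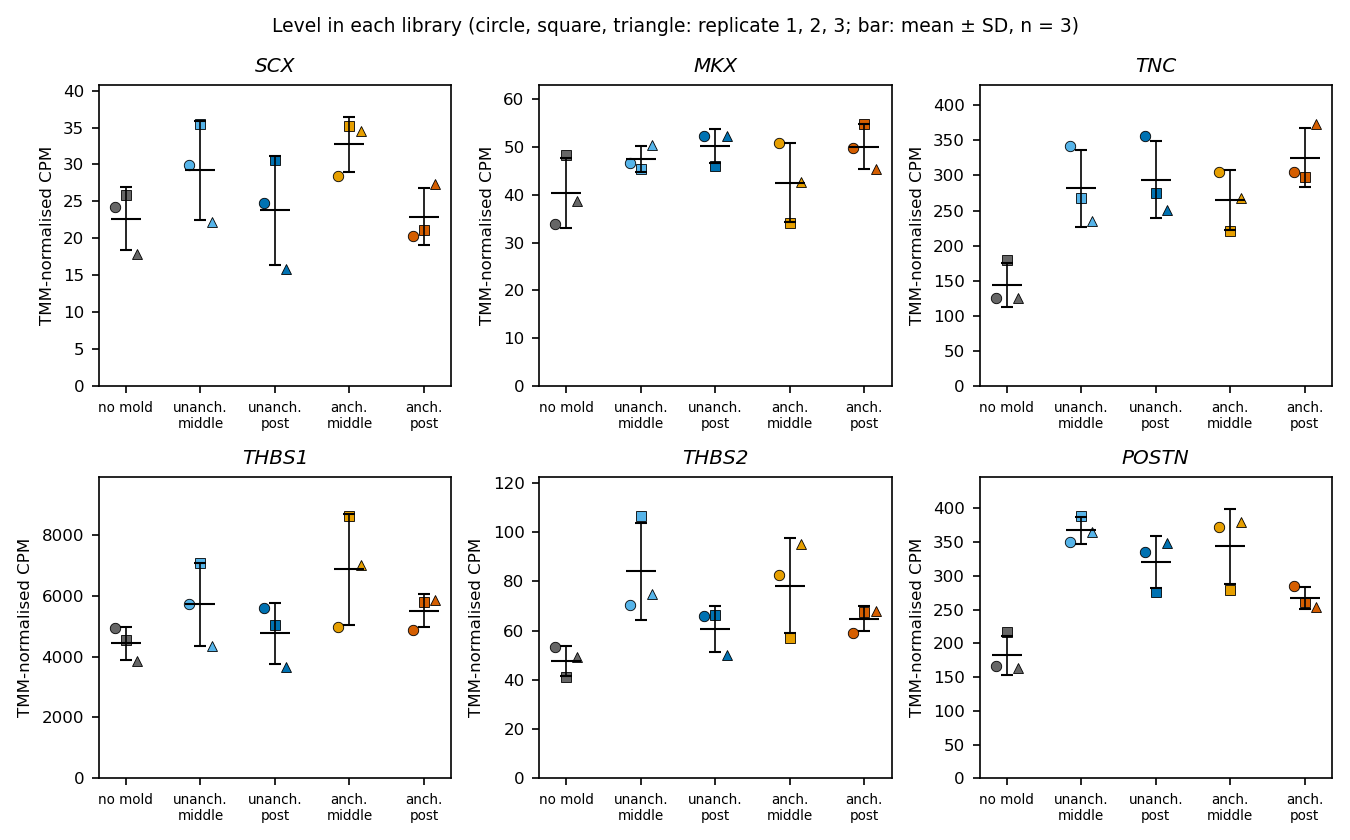
Level of each gene in each of the 15 libraries, in TMM-normalised CPM on an axis from 0, by group; symbols mark replicates 1 to 3 and bars the mean ± SD (n = 3). TNC and POSTN in every molded library lie above the highest no-mold library, while SCX overlaps no mold in every molded group but anchored middle, and MKX in all 4.

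TNC binds fibronectin and integrins and loosens cell adhesion. Without a mold it stood at 125, 179 and 126 CPM in libraries 1, 2 and 3. In unanchored tissue it stood at 342, 267 and 235 CPM in the middle and at 356, 276 and 250.4 CPM at the post. In anchored tissue it stood at 306, 221 and 268 CPM in the middle and at 306, 297 and 374 CPM at the post. No molded library reached down to the no-mold range: the lowest, anchored middle library 2, was at 221 CPM and the highest no-mold library at 179. The log2 fold change over no mold was 1.16 (SE 0.163, edgeR adjusted p = 0.000121) for anchored post, 1.02 (0.000448) for unanchored post, 0.95 (0.000405) for unanchored middle and 0.87 (0.00101) for anchored middle. The mean over molded groups kept its call when any single library was left out (log2 fold change 0.92 to 1.22, adjusted p at most 0.00155). Without the 3 shallowest libraries, which leaves 1 no-mold library whose variation is taken from the other groups, the 4 group calls ended (anchored post 0.86, adjusted p = 0.0502, the others at 0.0757 to 0.0818).

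POSTN, a fasciclin-domain protein that supports collagen fibril formation, had the largest share of its spread between groups among the 6: 86.4% of the variance of its log2 level lay between the 5 groups, against 80.6% for TNC, 62.7% for THBS2, 43.1% for THBS1, 42.3% for MKX and 41.1% for SCX. Without a mold it stood at 167, 216 and 164 CPM in libraries 1, 2 and 3. In unanchored tissue it stood at 349.6, 389 and 365 CPM in the middle and at 335, 277 and 349 CPM at the post. In anchored tissue it stood at 372, 279.8 and 381 CPM in the middle and at 286, 261 and 254 CPM at the post. Molded and unmolded libraries did not overlap, and anchored post was the molded group nearest to no mold. The log2 fold change over no mold was 1.00 (SE 0.126, edgeR adjusted p = 1.59e-05) for unanchored middle, 0.91 (5.72e-05) for anchored middle, 0.80 (0.000377) for unanchored post and 0.54 (0.0128) for anchored post. The anchored post call was lost without no-mold library 1 (adjusted p = 0.0773) or 3 (0.0926), without anchored post library 1 (0.058), and without the 3 shallowest libraries (0.386).

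THBS2 binds matrix metalloproteinases and CD47. It stood at 53.2, 41.1 and 49.1 CPM without a mold in libraries 1, 2 and 3. In unanchored tissue it stood at 70.6, 106 and 75.0 CPM in the middle and at 65.8, 66.3 and 50.0 CPM at the post. In anchored tissue it stood at 82.6, 57.1 and 95.02 CPM in the middle and at 59.1, 67.4 and 68.1 CPM at the post. Only unanchored post overlapped no mold, through its library 3. Both middle groups rose over no mold, unanchored middle by 0.84 in log2 (SE 0.175, edgeR adjusted p = 0.00255) and anchored middle by 0.76 (SE 0.177, edgeR adjusted p = 0.00557). The post groups did not pass, at 0.47 (0.125) for anchored and 0.37 (0.21) for unanchored post. Anchored post passed when the fit held only the groups compared (0.027), and both passed with no filter on low counts (0.00461 and 0.0342). The test between post and middle is given with the regions. For the mean of the molded groups the log2 value was 0.61 (SE 0.15, edgeR adjusted p = 0.00681), a call lost without no-mold library 2 (adjusted p = 0.0859).

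THBS1 stood at 4937, 4534 and 3857 CPM without a mold in libraries 1, 2 and 3. In unanchored tissue it stood at 5743, 7076 and 4354 CPM in the middle and at 5609, 5039 and 3646 CPM at the post. In anchored tissue it stood at 4971, 8617 and 7026 CPM in the middle and at 4876, 5797 and 5862 CPM at the post. The groups overlapped except that all 3 anchored middle libraries were above no mold, the lowest of them narrowly (4971 CPM against 4937 in the highest no-mold library). Anchored middle rose over no mold by a log2 value of 0.63 (SE 0.187, edgeR adjusted p = 0.0268), but the call was lost without no-mold library 2 (adjusted p = 0.0609) or 3 (0.136), without anchored middle library 2 (0.0973) or 3 (0.0681), without the 3 shallowest libraries (0.422) and by DESeq2 (0.0569). For the mean of the molded groups the log2 fold change was 0.35 (95% interval 0.04 to 0.66, edgeR adjusted p = 0.117), a call gained without anchored middle library 1 (0.0458).

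**Figure D2:**
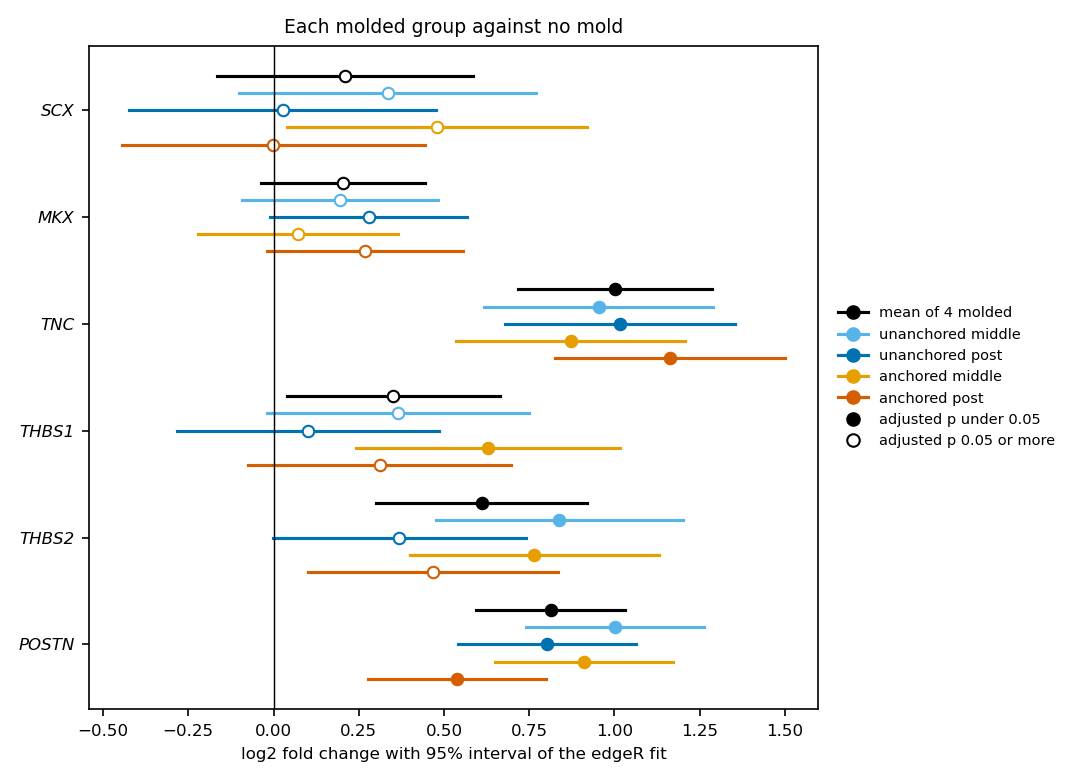
Log2 fold change of each molded group, and of the mean of the 4, over no mold, with the 95% interval of the edgeR fit; filled points have an adjusted p under 0.05. All points of TNC and POSTN are filled and all of SCX and MKX are open.

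SCX stood at 24.3, 25.8 and 17.9 CPM without a mold in libraries 1, 2 and 3. In unanchored tissue it stood at 29.9, 35.5 and 22.1 CPM in the middle and at 24.8, 30.6 and 15.9 CPM at the post. In anchored tissue it stood at 28.4, 35.2 and 34.6 CPM in the middle and at 20.3, 21.2 and 27.4 CPM at the post. The anchored middle libraries were all above no mold, with a log2 fold change of 0.48 (95% interval 0.04 to 0.92) that did not pass over all genes (edgeR adjusted p = 0.142), and the other 3 molded groups overlapped no mold. The mean over molded groups was 0.21 (95% interval -0.16 to 0.59, edgeR adjusted p = 0.482).

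MKX varied least among the 6, by 1.61-fold between its lowest and highest library, against 2.20-fold to 2.98-fold for the others. It stood at 33.9, 48.2 and 38.7 CPM without a mold in libraries 1, 2 and 3. In unanchored tissue it stood at 46.6, 45.3 and 50.4 CPM in the middle and at 52.2, 46.0 and 52.2 CPM at the post. In anchored tissue it stood at 50.7, 34.1 and 42.6 CPM in the middle and at 49.7, 54.8 and 45.4 CPM at the post. Every molded group overlapped no mold. The mean over molded groups was 0.20 (95% interval -0.04 to 0.44, edgeR adjusted p = 0.253), and the largest group value was 0.28 for unanchored post (0.226).

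Related genes were read from lists. Of 7 relatives of the members (other thrombospondins, tenascins and the periostin paralogue TGFBI), 5 were tested, and 1 rose and 1 fell with molding (median log2 fold change -0.12). THBS4, a thrombospondin of tendon and muscle, rose by 0.68 (SE 0.162, edgeR adjusted p = 0.00586), from a mean of 183 CPM without a mold to 229 to 339 in molded groups, a call lost without no-mold library 3 (adjusted p = 0.0698). COMP, the cartilage thrombospondin, fell by 0.76 in the molded mean (SE 0.217, edgeR adjusted p = 0.0189), a call lost without no-mold library 1 (0.352) and by DESeq2 (0.1). By group its log2 fold change over no mold was -1.63 (edgeR adjusted p = 0.00126) at unanchored post and -1.32 (0.00909) at anchored post. The anchored post call was lost without no-mold library 1 (0.091). No relative fell past the threshold in either middle group. TNXB and TNR had 35 and 0 counts in all and were not tested.

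Of 14 tested tendon transcription factors, their partners and SMAD regulators, 0 rose and 0 fell with molding by edgeR (median -0.02). At an unadjusted p under 0.05, 3 were higher and 3 lower, where 29.7% of all genes had such a p in either direction. DESeq2 called 1 higher and 0 lower. Of 16 tested tendon matrix genes, 3 rose and 1 fell (median 0.09). The small leucine-rich proteoglycans OGN (osteoglycin) and DCN (decorin) rose by 1.54 (SE 0.138, edgeR adjusted p = 1.58e-07) and 0.85 (SE 0.0877, edgeR adjusted p = 8.34e-07), in each of the 15 fits that left out a library. KERA (keratocan) passed as well (edgeR adjusted p = 0.00681) at very low levels, with means of 0.242 CPM without a mold and 1.04 to 2.35 in molded groups, a call lost without no-mold library 2 (0.071). The elastin gene ELN fell by 0.85 in the molded mean (SE 0.191, edgeR adjusted p = 0.00366), a call lost without no-mold library 1 (0.0855). By group its log2 fold change over no mold was -1.44 (edgeR adjusted p = 0.00123) at unanchored post and -1.22 (0.00615) at anchored post. The anchored post call was lost without no-mold library 1 (0.0589). No tendon matrix gene fell past the threshold in either middle group.

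Of 20 tested receptors and partners of the members, 3 rose and 2 fell with molding (median 0.09). ANXA2, an annexin that serves as a cell-surface receptor of TNC, rose by 0.51 in the molded mean (SE 0.0873, edgeR adjusted p = 0.000339). By group it rose in unanchored middle (0.73, edgeR adjusted p = 8.89e-05) and anchored middle (0.86, 1.72e-05) and passed in neither post group. ITGA5, the alpha subunit of the fibronectin receptor, fell by 0.31 (0.0125), a call lost without no-mold library 1 (0.0903) or 2 (0.0735). CALR (calreticulin), a partner of THBS1 at the cell surface, rose by 0.31 (0.0264), a call lost without no-mold library 1 (0.0964) or 3 (0.175). Of 11 TGF-β feedback genes 1 rose and 1 fell. SKIL, a SMAD co-repressor, rose by 0.67 (edgeR adjusted p = 0.00914) and ended without no-mold library 2 (0.111), and ID1, a BMP target, fell by 0.37 (0.0289) and ended without any 1 of the no-mold libraries (0.0545 to 0.172). Of 12 tested targets of YAP and SRF, which respond to tension on the cytoskeleton, 1 rose and 2 fell. ACTA2, smooth muscle actin, rose by 0.36 (0.0308), a call lost without no-mold library 1 (0.183) or 3 (0.139). SRF itself fell by 0.59 (0.0177), a call lost without any 1 of the no-mold libraries (0.0586 to 0.102), and CNN1 (calponin) fell by 0.50 (0.0379), a call made in 8 of 15 fits that left out a library.

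The comparison of post with middle asks how the regions of a molded tissue differ. Averaged over mold types, THBS2 and POSTN were lower at the post, on the log2 scale by 0.38 (SE 0.112, edgeR adjusted p = 0.0338) and 0.28 (SE 0.0858, edgeR adjusted p = 0.0397). So 2 of 6 members fell and 0 rose, where 5.19% of genes fell and 3.32% rose (8.51% either way, or 1007 genes, and 465 without unanchored middle library 2, 602 without unanchored post library 3, 634 without anchored middle library 3 and 648 without unanchored middle library 1), with a members' median of -0.29 beside -0.01 over all genes. SCX at -0.39 (95% interval -0.67 to -0.12, edgeR adjusted p = 0.0652) and THBS1 at -0.29 (-0.56 to -0.02, 0.178) had values below 0 without passing. TNC at 0.18 (-0.05 to 0.40, 0.344) and MKX at 0.14 (-0.05 to 0.32, 0.364) had values above 0 and did not pass either.

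**Figure D3:**
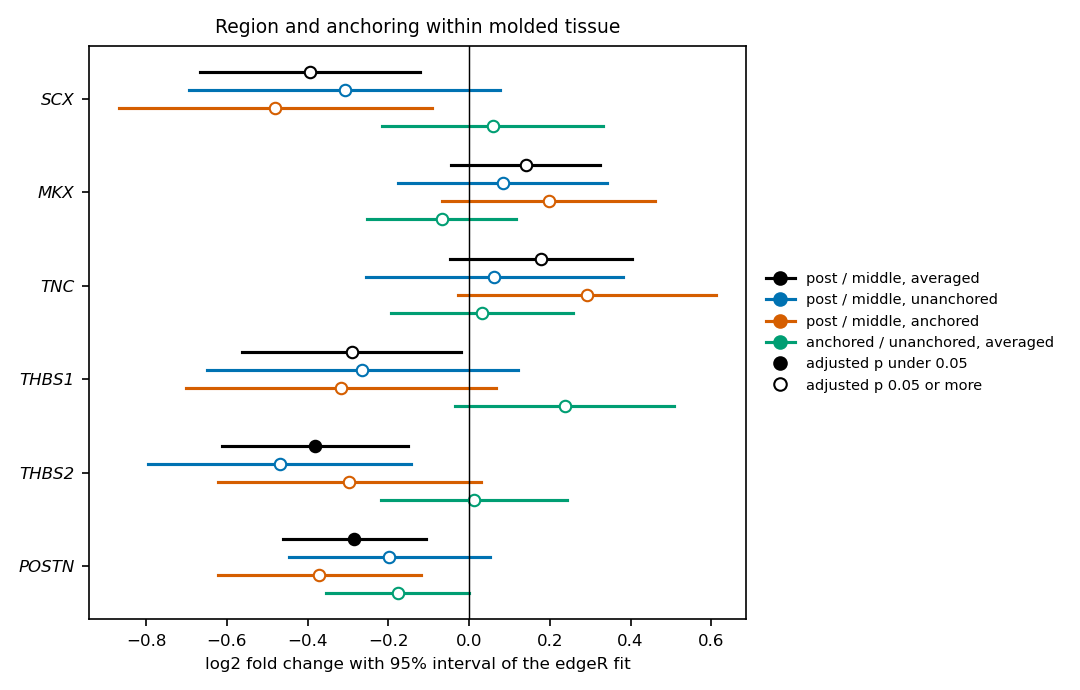
Log2 fold change of post over middle, averaged and in each mold type, and of anchored over unanchored tissue averaged over regions, with the 95% interval of the edgeR fit; filled points have an adjusted p under 0.05. Filled points are those of THBS2 and POSTN for post over middle averaged over mold types.

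These region calls depended on single libraries. The THBS2 call ended in 5 of the 15 fits that left out a library: without unanchored middle library 2 (edgeR adjusted p = 0.142), anchored middle library 3 (0.126), unanchored post library 3 (0.106), anchored post library 1 (0.0781) or anchored middle library 1 (0.0524). The POSTN call ended in 9 of the 15, without unanchored post library 1 or 2, any unanchored middle library, anchored post library 2 or 3, or anchored middle library 1 or 3 (adjusted p 0.0504 to 0.12), and with scaling by library totals alone (0.0579). The SCX value passed in 4 of the 15, without unanchored post library 2 (0.0247), unanchored middle library 3 (0.0218), anchored post library 3 (0.0433) or anchored middle library 1 (0.0442). Within a mold type 0 of 6 members passed in either comparison by edgeR or by DESeq2, where 1.92% of genes passed in anchored and 0.448% in unanchored tissue. At an unadjusted p under 0.05 there were 2 of 6 members in anchored tissue, where 14% of all genes had such a p. The 2 were SCX at -0.48 (SE 0.188, edgeR adjusted p = 0.231) and POSTN at -0.37 (SE 0.122, edgeR adjusted p = 0.128). In unanchored tissue there was 1 of 6, where 13.9% of all genes had such a p. It was THBS2 at -0.47 (SE 0.158, edgeR adjusted p = 0.185). In anchored tissue all 3 post libraries of SCX, at most 27.4 CPM, lay below the middle ones, at least 28.4. For POSTN anchored middle library 2 was at 279.8 CPM, inside the post range, and without that library POSTN passed (-0.50, adjusted p = 0.0214). In unanchored tissue the post libraries of THBS2, at most 66.3 CPM, lay below the middle ones, at least 70.6.

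The related genes were mostly lower at the post where they passed. Of all genes, 23.4% had an unadjusted p under 0.05 in this comparison, in either direction. Of 5 tested relatives 2 fell and 0 rose by edgeR (4 lower and 0 higher at an unadjusted p under 0.05, 2 and 0 by DESeq2). COMP fell by 1.43 (SE 0.207, edgeR adjusted p = 0.000121) and THBS3 by 0.47 (SE 0.101, edgeR adjusted p = 0.0047), both in each of the 15 fits that left out a library. Of 16 tendon matrix genes 9 fell and 1 rose (median -0.39). The collagen crosslinking enzyme gene LOX fell by 0.61 (edgeR adjusted p = 0.000935), the collagen gene COL3A1 by 0.66 (0.000981), ELN by 0.97 (0.00178) and FMOD, the gene of the fibril-binding proteoglycan fibromodulin, by 0.45 (0.00281). Of 14 tendon factors and regulators 3 fell and 0 rose by edgeR (3 lower and 2 higher at an unadjusted p under 0.05, 3 and 0 by DESeq2). SMAD3, which carries the TGF-β signal, fell by 0.56 (edgeR adjusted p = 0.00384) and TCF4, an E-protein, by 0.43 (0.00422).

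Of 20 receptors and partners 5 fell and 0 rose at the post by edgeR (10 lower and 3 higher at an unadjusted p under 0.05, 5 and 1 by DESeq2). The share of all genes at that unadjusted p was 23.4% in either direction, also for the lists below. ANXA2 fell by 0.56 (SE 0.0746, edgeR adjusted p = 4.39e-05). The receptor gene LRP1, whose product clears THBS1 and THBS2 from the cell surface, fell by 0.38 (0.013), and TGFB3 fell by 0.42 (0.0437), a call made in 6 of 15 fits that left out a library and not by DESeq2 (0.0775). Of 12 YAP and SRF targets 1 rose and 0 fell by edgeR (4 higher and 0 lower at an unadjusted p under 0.05, 0 by DESeq2), and of 11 TGF-β feedback genes 0 passed by edgeR or DESeq2, with 3 lower and 0 higher at an unadjusted p under 0.05.

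The comparison of anchored with unanchored tissue asks whether the post anchors went with a difference in expression. No member passed in the middle, at the post, averaged over regions, or in the test of whether the anchoring effect differed between regions. The same was true of all 11834 genes (0% passed by edgeR and 0 by DESeq2), with 366, 454, 648 and 223 genes at an unadjusted p under 0.05 in the order just given, and 0, 1, 0 and 0 members. That member was POSTN at the post, at 267 ± 16.5 CPM anchored and 320.4 ± 38.6 unanchored (SD, n = 3), which is -0.26 in log2 (SE 0.122, edgeR adjusted p = 1). With no filter on low counts, 28, 21, 66 and 3 of 21304 genes passed in the same order, and no member was among them. With the replicate number as a block, 1 gene, not a member, passed averaged over regions. Averaged over regions, the 95% interval of the log2 fold change was -0.19 to 0.26 for TNC, -0.22 to 0.24 for THBS2, -0.25 to 0.12 for MKX and -0.21 to 0.33 for SCX. For THBS1 it was -0.04 to 0.51 around 0.24 (adjusted p = 0.916), and for POSTN -0.35 to 0.00 around -0.18 (0.907).

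Ordered by group means, the 6 genes fell into different orders. TNC ran from anchored post (325.5 CPM) over unanchored post, unanchored middle and anchored middle (265) to no mold (143.5), where neighbours among the molded groups overlapped. POSTN ran from unanchored middle (368 CPM) over anchored middle, unanchored post and anchored post (267) to no mold (182), and THBS2 from unanchored middle (84.0 CPM) over anchored middle, anchored post and unanchored post (60.7) to no mold (47.8). THBS1 and SCX both began with anchored middle (6872 and 32.7 CPM) and unanchored middle and ended with no mold (4443 and 22.7). MKX began with both post groups (50.1 and 50.0 CPM) and ended with no mold (40.3), with neighbours overlapping throughout.

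Libraries of one group differed most in THBS1 and SCX, with a biological coefficient of variation of 15.7% and 14.7% in the edgeR fit against 9.49% to 13.6% for the other members. Their log2 levels correlated at r = 0.83 over the 15 libraries (Spearman's rank correlation 0.80, r = 0.72 without the 2 libraries farthest from the SCX median) and at r = 0.81 after group means were subtracted. Unanchored post library 3 was the lowest of all libraries in both genes, at 15.9 CPM of SCX and 3646 of THBS1. Of the 7091 other genes with a symbol of their own and a mean of at least 10 CPM, THBS1 ranked 16 by its correlation with SCX. After group means were subtracted THBS1 ranked 49. MKX and POSTN correlated at r = 0.78 within groups and at 0.53 with group means left in (rank correlation 0.25, r = 0.40 without the 2 farthest libraries). By its correlation with MKX, POSTN ranked 195 within groups and 1087 with group means left in. MKX correlated with THBS1 at -0.56 within groups. TNC and POSTN correlated at r = 0.74 over all libraries, with a Spearman's rank correlation of 0.34, r = 0.24 without the 2 farthest libraries and r = 0.45 within groups, and THBS1 with THBS2 at 0.53 over all libraries and 0.22 within groups. These are descriptions over 15 libraries that share groups, and depth differs among them.

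**Figure D4:**
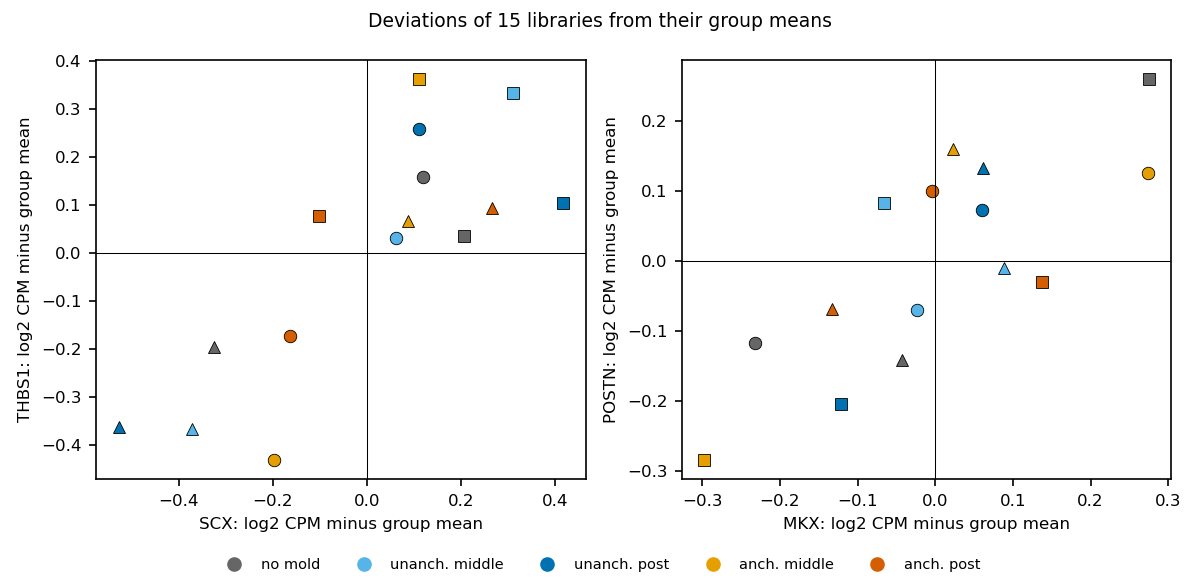
Deviation of each library's log2 CPM from its group mean, SCX against THBS1 (left) and MKX against POSTN (right); colours mark groups and symbols replicates 1 to 3. Libraries low in SCX for their group were low in THBS1 with the exception of anchored post library 2 (r = 0.81), and r was 0.78 for MKX and POSTN.

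The genes closest in pattern to each member, by the same correlation over 15 libraries, differed from member to member. SCX was closest to DPT (r = 0.92, 0.92 within groups), the gene of the small matrix protein dermatopontin, and to COL1A2 (0.89, 0.85), an alpha chain gene of type I collagen. THBS1 was closest to TMEM119 (0.93, 0.91) and TGFB3 (0.92, 0.92), the gene of the same growth factor that the medium supplied, and DLC1 was among the nearest 5 of both SCX (0.88) and THBS1 (0.89). TNC was closest to the nonmuscle myosin heavy chain gene MYH9 (0.94, 0.86), and THBS2 to the fibrillin gene FBN2 (0.93, 0.87) and the laminin gene LAMA2 (0.90, 0.74). POSTN was closest to the homeobox gene MEOX2 (0.96) and to RDX, the gene of radixin (0.96), and these links were weaker within groups (0.74 and 0.68). MKX was closest to IMP3 (0.92, 0.90) and DNAJA1 (0.91, 0.95).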

How the data were processed

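RNA of 15 libraries was sequenced after oligo-dT capture, tagmentation and barcoding with molecular identifiers, per the labels' protocols. The authors deposited 1 table with expected counts and CPM per gene, and the CPM equalled each count divided by its library's total. STAR 2.7, featureCounts, Subread 2.1.1, SAMtools 1.21 and MultiQC 1.33 are named, per the submitters' processing notes. For the genome build, the annotation, the strand setting and the use of molecular identifiers, nothing is stated: not given in the sources used here.

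The 92 spike-in entries (582 counts in all) were left out, and the deposited expected counts were rounded. Of 38001 genes, 11834 passed edgeR's filter (at least 10 counts, 15 in total). A quasi-likelihood fit took all 15 libraries together, with 1 coefficient for each group (edgeR 4.0.16, R 4.3.3), with TMM factors of 0.934 to 1.049, 12 comparisons, and Benjamini-Hochberg adjustment over all genes tested at 0.05. Intervals are at 95%. Correlations used log2 CPM with a prior count of 2.

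The members and gene lists were chosen with earlier results of these data known. Members are always named. From each of 6 lists up to 4 genes with the smallest adjusted p past the threshold are named per comparison, and 5 genes of most similar pattern per member were listed. Alternatives were RLE factors, library totals alone, no filter, DESeq2 1.42.0, the replicate number as a block, only the groups compared, rounding down, no shallow libraries, and leaving out each library. Symbols were matched to RefSeq's annotation of ARS-UCD2.0 for all 6 members. Sequences were not used here. Some genes of the lists are counted but not reported here by name.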

Additional observations from a re-analysis of the deposited data

How the results depend on the processing

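Without the 3 shallowest libraries, 1 no-mold library was left, assumed to vary like the others. Fewer members, and fewer of all genes, then passed in each molded group against no mold. The log2 fold change of TNC over no mold was then 0.71 at unanchored post, 0.68 in anchored middle and 0.86 at anchored post. That of POSTN was 0.30 at anchored post. In anchored post against anchored middle POSTN was -0.50 and passed. With no filter on low counts, members called against no mold were 4 for the molded mean, where 2058 of 21304 genes were called. They were 4 for unanchored middle (1916 genes), 3 for unanchored post (1317), 5 for anchored middle (1750) and 4 for anchored post (918). In the same setting they were 2 for anchored post against anchored middle (479 genes) and 1 for unanchored post against unanchored middle (272). For post against middle averaged they were 4 (1195 genes). With library totals alone the last was 1 member (918 of 11834 genes). With only the groups compared in the fit, 3 members passed for anchored post against no mold (690 of 11032 genes). Leaving out 1 library at a time gave 1 to 2 members for anchored post against no mold, 0 to 1 for anchored post against anchored middle, and 0 to 2 for post against middle averaged. Over all genes, anchored post against no mold had 251 of 11999 called without no-mold library 3, beside 658 of 11834 with all libraries. The cause was not tested.

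Log2 fold changes near 0 changed sign. Without the 3 shallowest libraries, MKX was -0.027 (unanchored middle) and -0.044 (anchored middle) and SCX -0.13 (unanchored post) against no mold. Between anchored and unanchored middle, TNC was then 0.029, THBS2 0.084 and POSTN 0.038, and the THBS1 interaction was 0.14. SCX in anchored post against no mold was 0.062 with library totals, 0.045 with no filter, 0.053 with the replicate block and 0.0097 by DESeq2. THBS2 for anchoring averaged was -0.0025 with library totals. Leaving out 1 library gave these ranges. Against no mold: SCX -0.19 to 0.25 and THBS1 -0.030 to 0.26 (unanchored post), MKX -0.078 to 0.26 (anchored middle), SCX -0.16 to 0.14 (anchored post). For unanchored post against middle: TNC -0.099 to 0.23. For anchoring in the middle: SCX -0.012 to 0.31, TNC -0.20 to 0.083, THBS2 -0.23 to 0.13, POSTN -0.17 to 0.034. For anchoring at the post: SCX -0.25 to 0.18, MKX -0.088 to 0.058, THBS2 -0.023 to 0.16. For anchoring averaged: SCX -0.052 to 0.16, TNC -0.026 to 0.11, THBS2 -0.067 to 0.12. For the interaction: SCX -0.39 to 0.042, THBS1 -0.24 to 0.14, THBS2 -0.033 to 0.33. Of all single-gene values under the alternatives, 1539 kept direction and call, 30 lost a call, 21 gained one and 66 changed sign.

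The replicate number as a block gave the same member counts except 3 in place of 2 for post against middle averaged, where SCX passed (adjusted p = 0.0448). Of all genes 1022 passed in that comparison with the block, beside 1007 in the main fit. The labels state no shared source for the numbers. Deviations from group means correlated above 0.1 in 6 of 30 same-numbered pairs and 8 of 60 others. Between middle and post of unanchored tissue, same-numbered pairs had r = 0.092, 0.107 and 0.264. In anchored tissue they had r = -0.029, 0.079 and 0.138. Differently numbered pairs of middle and post within a mold type reached at most 0.062. Whether same-numbered regions came from the same tissue was not tested, and the main fit did not pair them. With library totals alone, the share of all calls that were higher moved from 51.23% to 68.61% (unanchored middle), 54.68% to 69.8% (unanchored post), 53.4% to 66.14% (anchored middle) and 52.58% to 69.83% (anchored post against no mold). Without no-mold library 3, the number of genes that rose went from 895 to 406 (unanchored middle), 584 to 267 (unanchored post), 841 to 435 (anchored middle) and 346 to 132 (anchored post). Without no-mold library 1 these numbers were 600, 341, 616 and 150, and without no-mold library 2 they were 737, 518, 677 and 329. Between post and middle, leaving out 1 library gave 62 to 283 genes in anchored tissue (227 with all) and 3 to 159 in unanchored tissue (53 with all). SCX, at 36 to 237 counts a library, had the least depth.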
